A study of Mus musculus with 19 samples.

Results

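The genes described here encode the machinery of vesicle transport between the endoplasmic reticulum (ER) and the Golgi apparatus. They were chosen by symbol alone: subunits of the COPII and COPI vesicle coats, Arf GTPases and their activating proteins, p24 cargo proteins, cargo and retrieval receptors, the TRAPP and COG tethering complexes, golgins and other tethers, and the SNARE proteins of the early secretory pathway. Of 92 protein-coding genes of the mouse annotation whose symbols match, 66 were measured, out of 6842 genes in 3 tables. In astrocytes 65 of them were listed among 6376 genes, in microglia 34 among 3067 and in monocytes 40 among 3776. Of the 66 genes, 33 were in all 3 tables, 7 in 2 tables, 25 in the astrocyte table alone and 1, Sec22a, in the monocyte table alone.

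The study measured RNA in 3 cell types sorted by flow cytometry, astrocytes, microglia and monocytes, from the central nervous system of mice with experimental autoimmune encephalomyelitis (EAE), a model of inflammatory demyelination. All mice were wild type C57Bl/6 females at postnatal day 85, and all were given an intracranial lentivirus and then immunized with MOG35-55, a myelin peptide (25 µg), emulsified in complete Freund's adjuvant, so no group was free of virus or of EAE. The 2 groups of each cell type differed in the virus: pLenti-Gfap-GFP-shScramble with a non-targeting hairpin (shScrmbl) or pLenti-Gfap-GFP-shXbp1 with a hairpin against Xbp1 (shXbp1). There were 4 and 4 astrocyte libraries, 4 shScrmbl and 3 shXbp1 microglia libraries, and 2 and 2 monocyte libraries, each from the nervous system of 1 mouse. The Gfap promoter directs the virus to astrocytes, so the microglia and monocytes are cells of mice whose astrocytes were targeted. The labels do not say what share of the sorted astrocytes carried virus. In such bulk libraries, fewer cells of a type and less RNA per cell cannot be told apart.

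Proteins made at the ER leave it in COPII-coated vesicles, whose coat is set up by the GTPase Sar1 and the Sec16, Sec23, Sec24, Sec13 and Sec31 proteins. COPI-coated vesicles, set up by Arf GTPases, carry escaped ER proteins and cargo receptors back, and p24 proteins and lectins such as Lman1 act as cargo receptors in this traffic. TRAPP, COG and golgins tether arriving vesicles, and SNAREs such as Stx5a, Gosr2, Bet1 and Ykt6 fuse them. XBP1, which acts as a transcription factor when unfolded proteins stress the ER, is known to increase the expression of secretory pathway genes in professional secretory cells, and one of the DNA elements it binds is called the unfolded protein response element (UPRE).

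The targeted gene itself did not separate the astrocyte groups. Xbp1 signal, a count scaled for library size as deposited, in astrocytes was 20.1, 71.7, 79.9 and 27.6 with shScrmbl, against 34.1, 52.9, 31.2 and 79.7 in libraries labelled shXbp1. The groups overlapped fully, with 22 and 28 counts in all and a limma log2 difference of 0.12 ± 0.70 (SE, adjusted p = 0.966), whose 95% interval of -1.33 to 1.57 leaves a wide range of knockdown undetectable at this depth. Directions are therefore given between libraries as labelled, and the reads are 3′ tags whose place relative to the hairpin's target is not given in the sources used here.

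Libraries held few counts, taken from the 3′ ends of transcripts, so that a level does not scale with transcript length. Totals ran from 32842 to 302003 counts in astrocytes, from 10039 to 122002 in microglia and from 15654 to 112676 in monocytes, and 1 count was worth a signal of 4.22 to 27.6, 9.33 to 76.0 and 9.11 to 50.6. A gene with 0 counts in the shallowest library could thus have had a signal of up to 82.7, 228 or 152 (3 counts). Microglia and monocyte libraries labelled shXbp1 were the shallower ones, at 10039 to 46586 and 15654 to 56625 counts, against 17892 to 122002 and 74340 to 112676 for shScrmbl. Astrocytes went the other way, with a median of 42921 counts (32842 to 302003) for shScrmbl and 122294 (53228 to 221367) for shXbp1. The part of depth in the astrocyte differences was not tested. The ER to Golgi genes had a median of 44 counts over all astrocyte libraries (range 17 to 277), 30 over microglia (16 to 81) and 23 over monocytes (9 to 66). Of the marker lists, 13 of 16 astrocyte markers were in the astrocyte table, all 14 microglia markers in the microglia table and 12 of 14 monocyte and macrophage markers in the monocyte table. Gfap was on the list of 16 astrocyte markers but not among the 13 found. The 13 astrocyte markers had a summed signal of 3509 to 4957 per astrocyte library. The same libraries held all 8 choroid plexus markers at a summed signal of 148030 to 308740, most of it Ttr. Oligodendrocyte markers in them summed to 2125 to 6941 and microglia markers to 1705 to 5558.

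Because the comparison concerns XBP1, the reference promoters of the genes were searched for the letters of elements known to bind it. RefSeq (GRCm38.p6) gave at least 1 window, from 250 bases before to 50 bases after a start, for 57 of the 66 genes. A gene with several starts had a window for each, and a match in any of them was counted. The UPRE letters TGACGTGG, read on either strand, were found for 6 of 57 genes (10.5%). They were found for 58 of 5216 genes in the tables (1.11%) and for 193 of 27025 genes in all (0.714%). The 6 genes are Arf1, a GTPase that recruits the COPI coat, Copb1 and Copb2, subunits of that coat, Sec23a and Sec24d, subunits of the inner COPII coat, and Stx5a, the Golgi SNARE. Their stretches are shown because they are the members with a textbook XBP1-type element beside the start of the gene. Capitals mark TGACGTGG or its reverse complement CCACGTCA, and each stretch is written 5′ to 3′ on the gene's strand. Distances are from 1 RefSeq start, and from a second Arf1 start the same match lies 21 bases after it. In the GENCODE M21 annotation Arf1, Copb1 and Sec24d begin at 59228270, 114254711 and 123267455. Their matches, given below as before the start, lie inside the gene by that annotation.
Arf1, chr11:59228163-59228272, minus strand, 76 bases before the start: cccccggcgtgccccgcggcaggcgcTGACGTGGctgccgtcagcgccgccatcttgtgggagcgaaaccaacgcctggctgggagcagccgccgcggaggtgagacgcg
Copb1, chr7:114254681-114254790, minus strand, 20 bases before the start: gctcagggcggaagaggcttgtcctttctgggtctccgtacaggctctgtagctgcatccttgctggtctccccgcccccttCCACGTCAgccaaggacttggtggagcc
Sec24d, chr3:123267386-123267495, plus strand, 18 bases before the start: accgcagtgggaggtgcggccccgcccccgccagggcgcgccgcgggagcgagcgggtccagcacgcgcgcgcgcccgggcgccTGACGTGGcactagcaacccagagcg
Copb2, chr9:98563716-98563739, plus strand, across the start: cggaagttCCACGTCAgtgggttg
Sec23a, chr12:59011996-59012019, minus strand, 6 bases after the start: ctccccttTGACGTGGcagaggcg
Stx5a, chr19:8741425-8741448, plus strand, 9 bases after the start: cgcagcagCCACGTCAccgagtta
Stx5a, chr19:8741455-8741473, plus strand, 39 bases after the start: cgtctaggTGACGTGGcgg

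The shorter letters ACGTG, the core contained in the UPRE letters, were found for 30 of 57 genes (52.6%). They were found for 29.5% of genes in the tables and 21.8% of all. The letters CCACG, which overlap that core and also end the 2 longer elements, were in 41 of 57 (71.9%), against 51.8% and 35.5%. The ER stress response element, CCAAT followed after 9 bases by CCACG, was found for 0 of the 57 genes and 9 of 5216. ERSE-II, ATTGG followed after 1 base by CCACG, was in 0 of 57 and in 6 of 5216. All were searched on both strands. A match is a run of letters in the reference and not evidence of binding, and the base composition of the windows was not taken into account.

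In astrocytes, the cells the virus was aimed at, no ER to Golgi gene passed the test. limma on log2(signal + 1), with Benjamini-Hochberg adjustment over 6366 genes, called 0 of 65 at an adjusted p under 0.05, where it called 0 of all genes (0%). edgeR's quasi-likelihood test on the recovered counts also called 0 of 65, where it called 1 of all genes (0.0157%). DESeq2 called 0 of 65 and 0 of all genes. At an unadjusted p under 0.05, limma had 2 of 65 (Rint1 and Golga4), against 4.68% of all genes, edgeR had 2 of 65 (Rint1 and Arf6), against 6.57%, and DESeq2 had 1 of 65, against 2.06%. Libraries labelled shXbp1 all lay above the shScrmbl libraries for 1 gene, Arf6 (2.37% of all genes did so), and all below for 1, Rint1 (0.785% of all genes).

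As a group, the differences lay near those of all genes tested. The log2 difference was positive for 44 of 65 genes by limma with a median of 0.32, beside 4341 of 6366 and 0.42 over all genes tested. By edgeR it was positive for 35 of 65, with a median of 0.09 beside 0.05, and by DESeq2 for 31 of 65, with a median of -0.06 beside -0.01. Without the fourth shScrmbl library, the shallowest, limma gave 34 of 65 and a median of 0.06. Differences are therefore read against the median of all genes by the same method. The genes made up 0.381% to 0.431% of counts in the 4 shScrmbl libraries and 0.437% to 0.478% in the 4 labelled shXbp1. These shares did not overlap, but the exact counting intervals of the nearest libraries did. They were 0.375% to 0.492% in the first shScrmbl library and 0.394% to 0.483% in the third shXbp1 library. How often other gene sets separate in this way was not tested. The summed signal of the genes overlapped, at 3595 to 5094 and 3883 to 5053. Choroid plexus markers summed to 211420 to 308740 in shScrmbl and 148030 to 273570 in shXbp1, and their part in the shares was not tested. The map of all genes and libraries shows the values behind these counts.

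**Figure D1:**
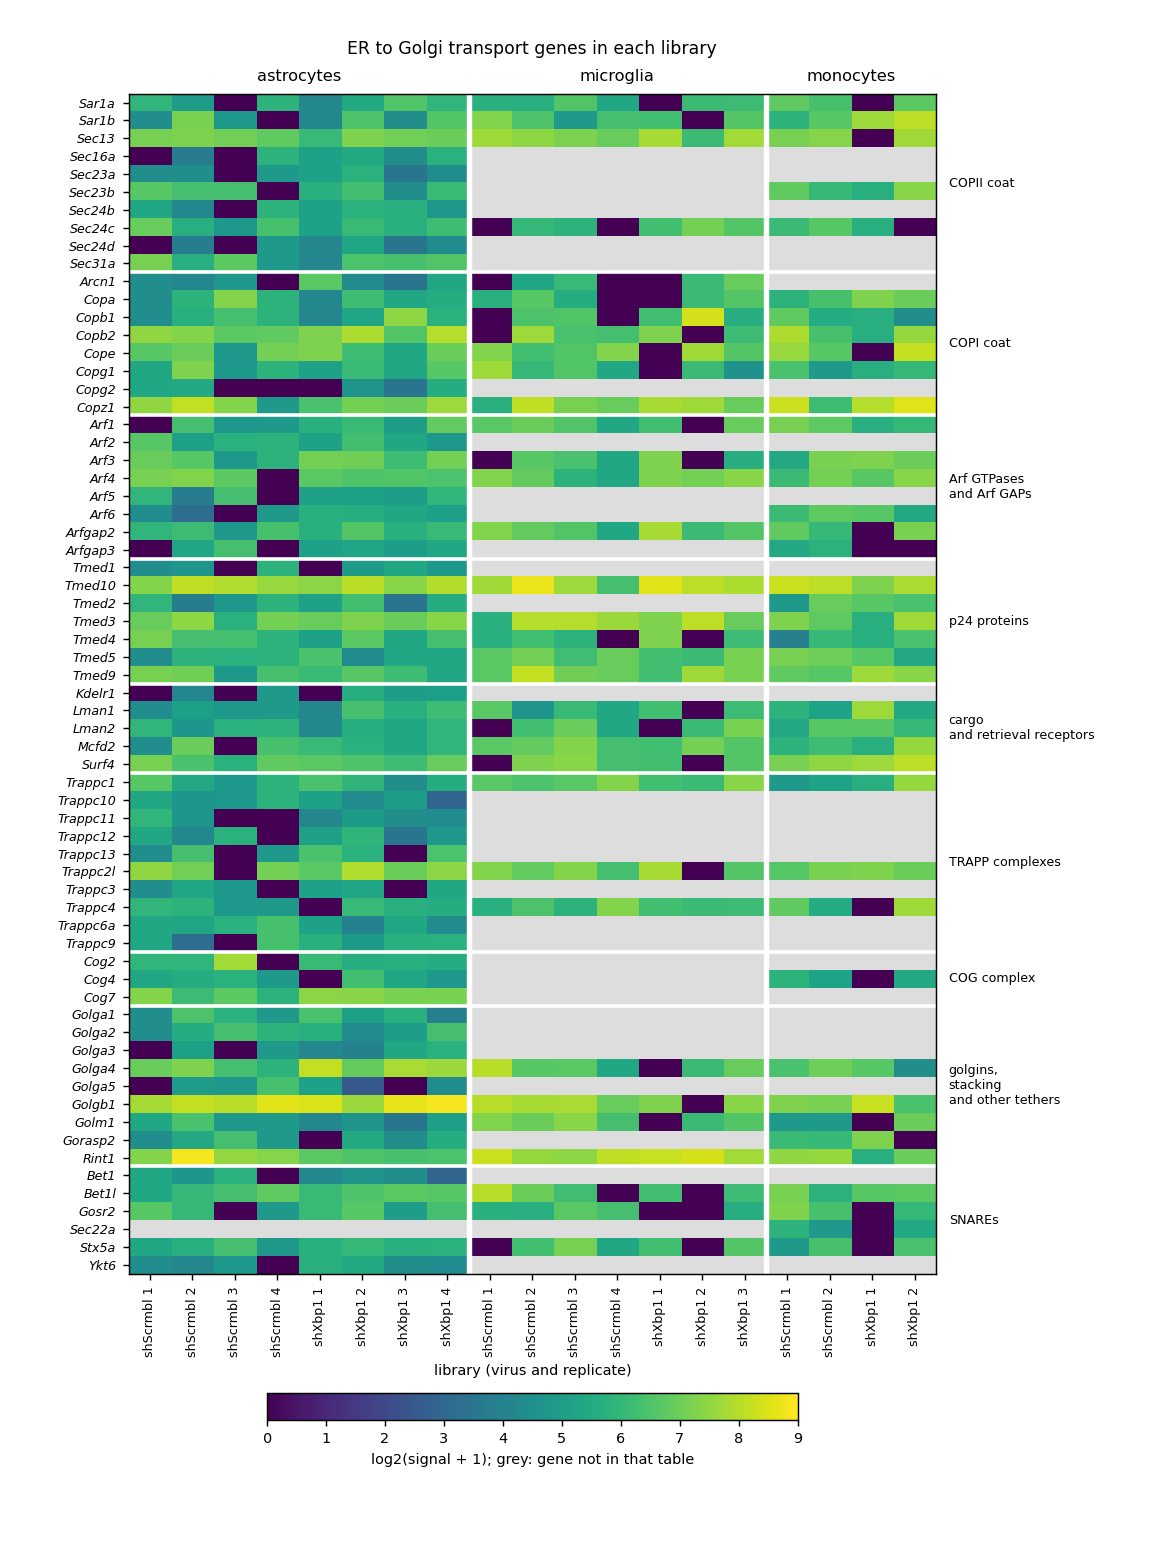
Each row is a gene, ordered by role, and each column a library, with colour giving log2(signal + 1) and grey a gene that its table does not hold. Of the 66 genes, 65 are coloured in astrocytes, 34 in microglia and 40 in monocytes, and the darkest cells are values of 0. The libraries with the fewest detected genes held 49 of 65 (35450 counts), 22 of 34 (13321 counts) and 29 of 40 (15654 counts).

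Among COPII genes in astrocytes, 7 of 10 had a positive limma difference (median 1.30) and 6 of 10 a positive edgeR difference (median 0.33), and none passed either test. The limma median was 0.18 without the third shScrmbl library and 0.87 without the fourth. Over the 3 COPII genes with signal in every library, 0 of 3 were positive. The summed signal of all 10 COPII genes was 506 ± 122 (SD, n = 4) in shScrmbl and 540 ± 168 (SD, n = 4) in shXbp1, a gap well inside the spread. Sec16a, the scaffold that marks ER exit sites, had a signal of 0, 12.7, 0 and 55.2 in shScrmbl and 34.1, 43.3, 20.8 and 53.1 in shXbp1. All 4 shXbp1 libraries held it and 2 shScrmbl libraries did not, but the groups overlapped, with 5 and 21 counts (limma log2 difference 2.81 ± 1.54 SE, adjusted p = 0.824; edgeR 1.42, adjusted p = 0.779). Sec13, a cage subunit and the most abundant COPII gene here, overlapped at 140, 152, 133 and 110 against 68.2, 154, 135 and 126. Sec31a, the other cage subunit, was 140, 50.6, 107 and 27.6 against 17.1, 86.6, 83.3 and 93.0.

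For the COPI coat, 7 of 8 limma differences were positive but 3 of 8 edgeR differences were (medians 0.11 and -0.21). Both medians lay below those of all genes (0.42 and 0.05), as did the DESeq2 median of -0.21 (all genes -0.0071) and the quantile median of -0.07 (all genes 0.03), and none of the 8 passed. The summed coat signal was 629 ± 186 (SD, n = 4) and 661 ± 150 (SD, n = 4). Copb2, whose promoter holds the UPRE letters, was the most abundant subunit at 181, 160, 107 and 110 in shScrmbl and 153, 236, 93.7 and 252 in shXbp1. Its groups overlapped (limma log2 difference 0.33 ± 0.42 SE, adjusted p = 0.86). Copz1, the zeta subunit, was 181, 287, 160 and 27.6 against 85.3, 140, 125 and 206, with both the highest and the lowest value in shScrmbl.

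Arf6 (chromosome 12, 69372150 to 69373783, plus strand), an Arf GTPase best known at the plasma membrane and in endosomes, had the clearest gap among the Arf genes. Its signal was 20.1, 8.43, 0 and 27.6 in shScrmbl and 51.2, 48.1, 41.6 and 33.2 in shXbp1. Every shXbp1 library lay above every shScrmbl library, on 4 against 22 counts. The pooled ratio was 3.87 (exact 95% interval 1.31 to 15.4, counting error only), limma gave 2.34 ± 1.37 (SE, adjusted p = 0.824) and edgeR 1.80 (unadjusted p = 0.0319, adjusted p = 0.708). Arf3 and Arf4, Golgi Arfs and the most abundant of this group, overlapped between viruses. Over the 8 Arf and Arf GAP genes the summed signal was 413 ± 120 (SD, n = 4) and 509 ± 84.7 (SD, n = 4).

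Of the p24 proteins, which cycle between ER and Golgi as cargo receptors, 3 of 7 were positive by limma and by edgeR. Their medians were -0.04 and -0.06, below the 0.42 and 0.05 over all genes. Tmed10, the most abundant of them, had a signal of 160, 278, 240 and 193 in shScrmbl and 171, 265, 167 and 246 in shXbp1. Its limma interval of -0.80 to 0.72 was the one among the 65 that stayed within 2-fold in both directions (6.49% of all genes did). Tmed3 was 120, 177, 53.3 and 138 against 119, 154, 125 and 166, and Tmed4 140, 80.1, 79.9 and 55.2 against 34.1, 106, 41.6 and 79.7. Both overlapped.

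Of the cargo and retrieval receptors, 4 of 5 had positive differences by limma and by edgeR but 2 of 5 by DESeq2, and none passed. Surf4, a receptor for soluble cargo, was the most abundant at 140, 84.3, 53.3 and 110 against 102, 91.4, 72.9 and 120. Mcfd2, the partner of Lman1 in carrying clotting factors, was 20.1, 122, 0 and 82.7 against 68.2, 52.9, 41.6 and 59.8. Kdelr1, the receptor that returns ER chaperones with a KDEL tail, was near the detection limit, with 5 counts in shScrmbl and 18 in shXbp1 and 3 libraries at 0.

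Rint1, a tether that captures COPI vesicles at the ER, showed the smallest p of the 65. The gene lies on chromosome 5 from 23787711 to 23820369 on the plus strand (GENCODE M21, GRCm38). Its signal was 160, 468, 186 and 165 in shScrmbl and 102, 91.4, 83.3 and 86.3 in shXbp1. All 4 shXbp1 libraries were below all 4 shScrmbl libraries, at means of 245 ± 149 and 90.8 ± 8.37 (SD, n = 4 each) from 132 and 46 counts. limma gave a log2 difference of -1.27 ± 0.43 (SE, unadjusted p = 0.00734, adjusted p = 0.824), edgeR -1.59 (unadjusted p = 0.000345, adjusted p = 0.434) and DESeq2 -1.63 (unadjusted p = 0.00105), so Rint1 did not pass in any. The second shScrmbl library, the deepest, held 111 of the 132 counts of Rint1 and 302003 of the 420687 counts of all genes in the group. It also had the highest microglia marker sum (5558, against 1705 to 2124 in the other 3) and monocyte marker sum (4727, against 341 to 1225). Without it the limma difference was -0.90 (adjusted p = 0.530). The shScrmbl means of Rint1 in microglia and monocytes were 240 and 186, and the part of myeloid RNA in the astrocyte gap was not tested. A processed pseudogene, 4933427G23Rik, overlaps its 3′ end on the opposite strand, and whether counting used strand is not given in the sources used here.

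No other tether passed the test either. Golga4, a trans-Golgi golgin, was 120, 152, 79.9 and 55.2 in shScrmbl and 290, 115, 229 and 199 in shXbp1. Of the shXbp1 libraries 3 lay above every shScrmbl library and 1 did not (limma 1.05 ± 0.44 SE, unadjusted p = 0.0273, adjusted p = 0.824; edgeR 0.80, adjusted p = 0.77). Golgb1 (giantin), the most abundant of the 65 genes, was 221, 291, 266 and 386 against 358, 197, 416 and 471. Gorasp2, a Golgi stacking protein, was 20.1, 42.2, 79.9 and 27.6 against 0, 43.3, 20.8 and 46.5. Over all 9 tethers, golgins and stacking proteins the summed signal was 873 ± 265 (SD, n = 4) and 847 ± 208 (SD, n = 4). Of the differences, 3 were positive and 6 negative, with medians of -0.18 by limma and -0.32 by edgeR. Both lay below the medians of all genes, 0.42 and 0.05. Without the third shScrmbl library the limma median of the 9 was 0.04.

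Cog7, a subunit of the COG complex that tethers vesicles within the Golgi, was 160, 71.7, 107 and 55.2 in shScrmbl and 171, 168, 146 and 146 in shXbp1. Of the shScrmbl libraries 1 lay among the shXbp1 values (limma 0.79 ± 0.44 SE, adjusted p = 0.824). Cog2, of the other lobe, was 60.2, 59.0, 213 and 0 against 68.2, 48.1, 52.0 and 46.5, the outer values both in shScrmbl. The 10 TRAPP genes were split 6 to 4 by limma and 5 to 5 by edgeR. Trappc2l was 181, 135, 0 and 138 against 102, 241, 125 and 173. Trappc1 was 100, 42.2, 26.6 and 55.2 against 85.3, 57.7, 20.8 and 46.5. Trappc6a was 40.1, 38.0, 53.3 and 82.7 against 34.1, 14.4, 41.6 and 19.9, with overlapping groups.

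SNARE genes were positive for 5 of 5 by limma (median 0.38) and 4 of 5 by edgeR (median 0.41), beside 0.42 and 0.05 over all genes. By limma 3 of 5 were positive without the fourth shScrmbl library. The summed signal of all 5 was 216 ± 35.3 (SD, n = 4) against 267 ± 39.6 (SD, n = 4). Bet1l, a SNARE of transport within the Golgi, was 40.1, 63.3, 79.9 and 110 against 68.2, 91.4, 104 and 99.6. Gosr2 (membrin) was 100, 63.3, 0 and 27.6 against 68.2, 101, 31.2 and 79.7. None of the 5 passed, and the plot of differences with their intervals shows how wide each estimate was.

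**Figure D2:**
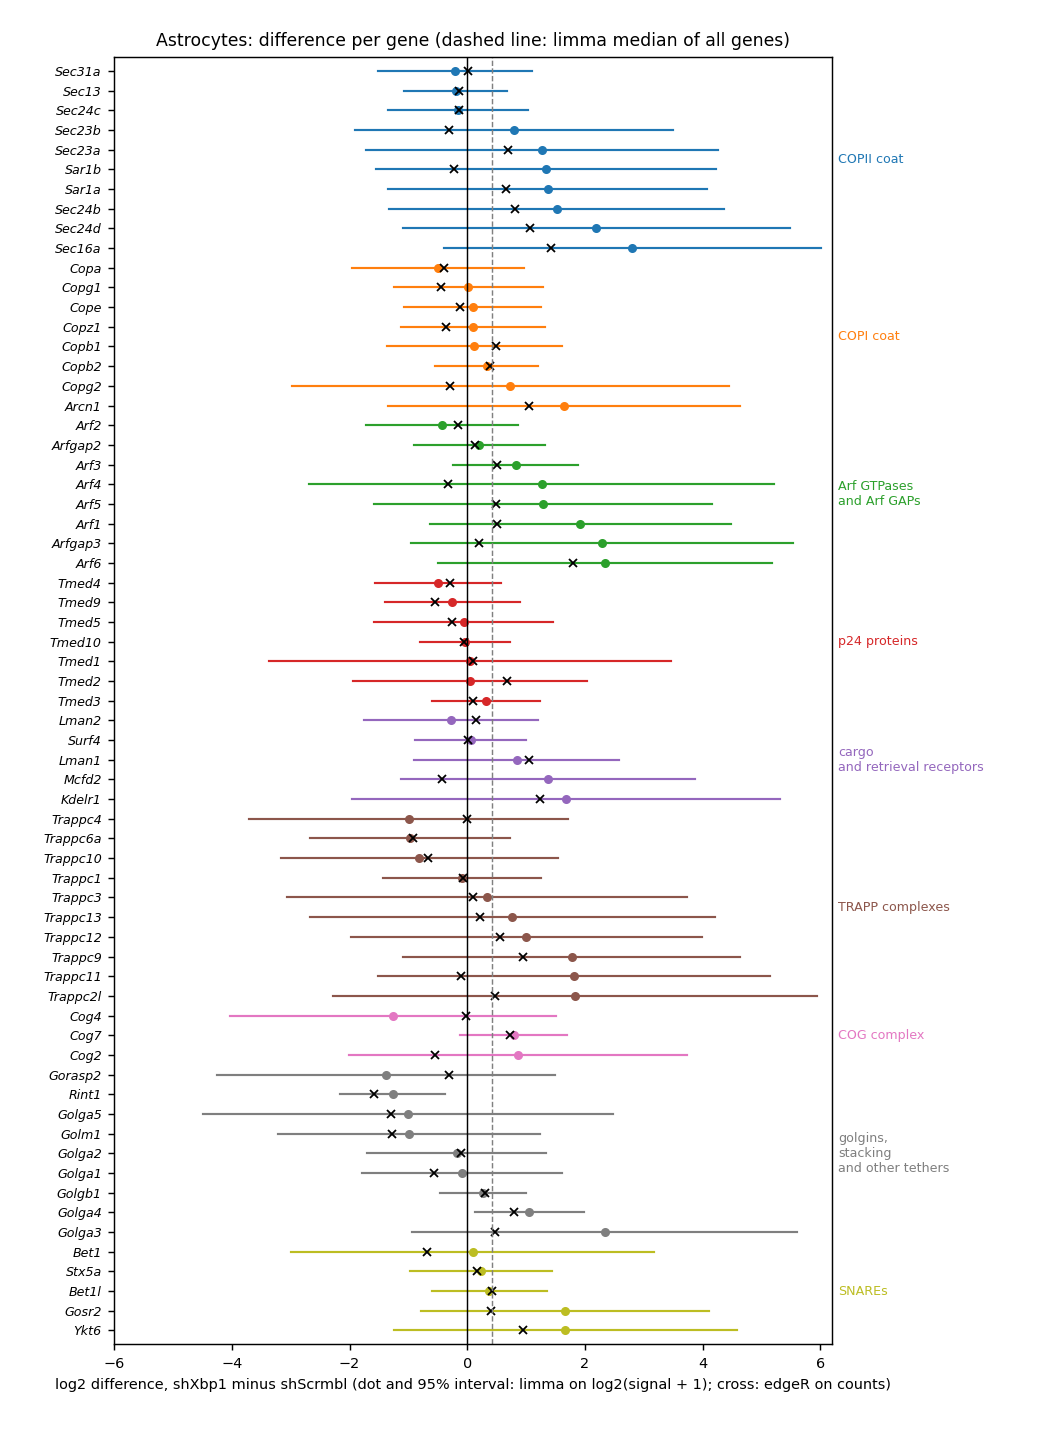
Log2 differences between astrocyte libraries labelled shXbp1 and shScrmbl, 1 line per gene, coloured by role; dots and bars are limma estimates with 95% intervals on log2(signal + 1), crosses are edgeR estimates, and the dashed line is the limma median of all genes (0.42). Before adjustment the intervals of 2 genes lie off 0, Rint1 below and Golga4 above.

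The 6 genes with UPRE letters were all higher on average in astrocyte libraries labelled shXbp1, and none passed. The difference was positive for 6 of 6 by limma, edgeR and DESeq2, where 68.2%, 53.2% and 49.5% of all genes were positive, and for 5 of 6 after quantile normalization, and also for 5 of 6 without the first or the fourth shScrmbl or the third shXbp1 library. By limma 3 of the 6, Copb1 (0.12), Stx5a (0.24) and Copb2 (0.33), lay below the median of all genes, 0.42. Arf1 was 0, 80.1, 26.6 and 27.6 in shScrmbl and 51.2, 67.4, 31.2 and 113 in shXbp1 (limma 1.92, adjusted p = 0.824; edgeR 0.51, adjusted p = 0.933). Copb1 was 20.1, 50.6, 79.9 and 55.2 against 17.1, 38.5, 177 and 53.1, where 1 shXbp1 library carried the mean. The groups overlapped for both genes.

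The COPII pair was barely counted. Sec23a was 20.1, 21.1, 0 and 27.6 against 34.1, 52.9, 10.4 and 19.9, from 7 and 17 counts. Sec24d was 0, 12.7, 0 and 27.6 against 17.1, 38.5, 10.4 and 19.9, from 4 and 13 counts, and had the largest difference of the 6 (limma 2.19, adjusted p = 0.824; edgeR 1.07, adjusted p = 0.881). Stx5a was close, at 40.1, 50.6, 79.9 and 27.6 against 51.2, 62.6, 52.0 and 53.1 (limma 0.24, adjusted p = 0.921). Copb2, whose values are given above, had the narrowest interval of the 6, -0.55 to 1.21. In monocytes, where 4 of the 6 were in the table, the difference was positive for 0 of 4 by limma, edgeR and DESeq2 (34.2%, 43.1% and 43.7% of all genes) and for 1 of 4 after quantile normalization, but for 2 of 4 without the first shXbp1 library. In microglia it was positive for 1 of 4 by each of these 3 methods (34.5%, 44.6% and 45.1% of all genes) and for 2 of 4 after quantile normalization, but for 4 of 4 without the second shXbp1 library. None passed in either cell type.

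**Figure D3:**
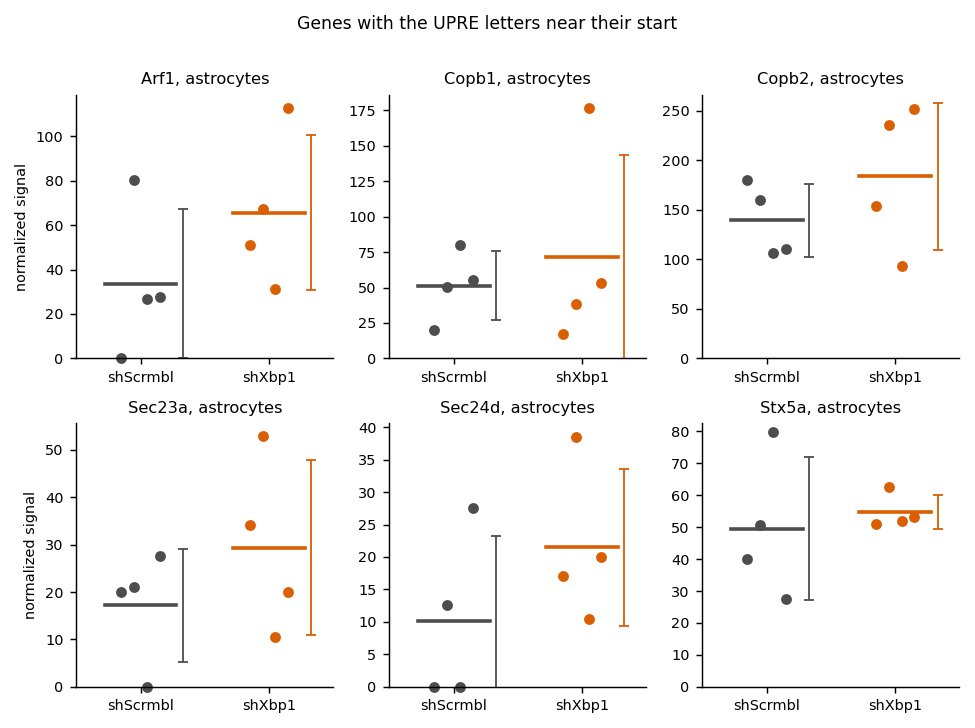
Normalized signal of the 6 genes whose promoter window holds the UPRE letters, 1 dot per astrocyte library, with the mean as a bar and the SD as a whisker cut at 0 (n = 4 per virus). The shXbp1 dots overlap the shScrmbl dots in each of the 6 panels.

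In microglia of the same kinds of mice, again no ER to Golgi gene passed. limma called 0 of 34 (0% of all 3066 genes), edgeR 0 of 34 (0.391% of all genes) and DESeq2 0 of 34. At an unadjusted p under 0.05 limma had 0 of 34, against 5.41% of all genes, and edgeR and DESeq2 also had 0 of 34, against 5.48% and 2.02%. The limma difference was positive for 10 of 34 (34.5% of all genes) with a median of -0.24, beside -0.39 over all genes, and the edgeR difference for 15 of 34 (44.6%) with a median of -0.12, beside -0.09. Monocyte markers summed to 5606 to 25275 in shScrmbl microglia and 2128 to 8555 in shXbp1 microglia. Oligodendrocyte markers (2 of 9 in the table) did not overlap, at 345 to 520 and 670 to 1518, nor did the single endothelial marker held, at 0 to 51.9 and 76.0 to 207. Choroid plexus markers (4 of 8 in the table) summed to 18040 to 63844 in shScrmbl and 33461 to 43118 in shXbp1. The part of these lists in any difference was not tested. After rescaling without Ttr, limma gave 15 of 34 positive and a median of -0.09, not set against all genes here. Both groups held all 14 microglia markers, at 13651 to 19800 and 12281 to 19991.

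Gosr2 (chromosome 11, 103676849 to 103697898, minus strand), the SNARE that works at the cis-Golgi, was the microglial gene with the smallest p. Its signal was 51.9, 50.5, 103 and 80.0 in shScrmbl and 0, 0 and 47.9 in shXbp1, so all shXbp1 libraries were lower (4.92% of all genes were lower without overlap). The 18 and 2 counts gave a pooled ratio of 0.369 (exact 95% interval 0.0415 to 1.54, counting error only). limma gave -4.24 ± 2.28 (SE, adjusted p = 0.804) and edgeR -1.35 (adjusted p = 0.996), and a single count in the shallowest library would have been worth 76.0, above 2 of the 4 shScrmbl values.

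Sec24c (chromosome 14, 20674308 to 20694852, plus strand), a COPII cargo adaptor, went the other way in microglia. Its signal was 0, 63.1, 56.0 and 0 in shScrmbl and 76.0, 138 and 95.8 in shXbp1, without overlap (2.32% of all genes were higher in this way). The shXbp1 values rested on 7 counts and the shScrmbl values on 11, with a pooled ratio of 2.11 (exact 95% interval 0.695 to 5.97). limma gave 3.70 ± 2.25 (SE, adjusted p = 0.814) and edgeR 1.07 (adjusted p = 0.996).

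Other microglial values were as scattered. Copb1 was 0, 88.3, 93.3 and 0 in shScrmbl and 76.0, 345 and 47.9 in shXbp1. Copg1, the gamma subunit of COPI, was 208, 63.1, 93.3 and 40.0 against 0, 69.0 and 23.9. Both overlapped between viruses, as did Arf4 at 156, 114, 56.0 and 40.0 against 152, 138 and 168. Golgb1 was 260, 227, 233 and 120 against 152, 0 and 168. Golm1, a Golgi membrane protein, was 156, 126, 168 and 80.0 against 0, 69.0 and 95.8. Both were lower on average in shXbp1 with overlapping groups, and the 0 of each was in 1 of the 2 shallowest libraries.

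The abundant microglial genes did not separate the viruses either. Rint1 was 311, 189, 177 and 280 in shScrmbl and 304, 345 and 215 in shXbp1, without the gap seen in astrocytes. Tmed10 was 208, 429, 205 and 80.0 against 380, 276 and 239. Sec13 was 208, 177, 149 and 120 against 228, 69.0 and 215. These genes overlapped, and so did Tmed3 at 51.9, 252, 252 and 200 against 152, 276 and 120. The 3 SNAREs were negative by limma, edgeR and DESeq2, with a summed signal of 250 ± 91.7 (SD, n = 4) against 122 ± 111 (SD, n = 3), and 1 of the 3 was positive after quantile normalization and 2 without the second shXbp1 library.

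In monocytes, with 2 libraries per group, limma called 1 of 40 ER to Golgi genes, where it called 101 of 3775 genes (2.68%). Of those 101 genes, 99 had both shXbp1 libraries at 0, a group without any spread on that scale. edgeR called 0 of 40 and 1 of all genes (0.0265%), and DESeq2 called 0 of 40. At an unadjusted p under 0.05 limma had 2 of 40, against 4.77% of all genes, edgeR 2 of 40, against 4.66%, and DESeq2 0 of 40, against 0.556%. The called gene was Arfgap3, on chromosome 15 from 83299739 to 83350247, whose product switches Arf1 off on COPI vesicles. Its signal was 41.9 and 54.6 in shScrmbl and 0 and 0 in shXbp1, on 9 against 0 counts. The groups did not overlap, but 1 count in the first shXbp1 library would have been worth 50.6, within the shScrmbl range. Set against a floor of 3 counts over the shXbp1 group it was at least 1.12-fold lower there, and the exact 95% interval of the pooled ratio, 0 to 1.36, includes 1. limma gave an adjusted p of 0.00516, edgeR 0.922, and the call was lost with a pseudocount of 10 (adjusted p = 0.702).

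Separation of 2 against 2 libraries was common in monocytes. For 5 of 40 genes both shXbp1 libraries were higher (9.85% of all genes), namely Sar1b, Trappc1, Copa, Tmed9 and Surf4, and for 7 of 40 both were lower (25% of all genes), namely Arfgap3, Rint1, Gosr2, Arf1, Tmed5, Sec24c and Tmed10. The limma median over the 40 was -0.46, beside -0.42 over all genes. The edgeR median was 0.14, beside -0.17, so the sign of the median depended on the method. The difference was positive for 18 of 40 by limma (45%), 22 by edgeR (55%) and 23 by DESeq2 (57.5%). Over all genes these shares were lower, at 34.2%, 43.1% and 43.7%, a gap that was not tested. Monocyte markers summed to 23029 and 21380 in shScrmbl and to 6471 and 20015 in shXbp1. Other marker lists separated the monocyte groups too. Neutrophil markers (7 of 10 in the table) summed to 810 and 674 against 354 and 209, and lymphocyte markers (7 of 12) to 6498 and 4398 against 7230 and 8647. Astrocyte markers (6 of 16) summed to 1467 and 1858 against 2275 and 2471, and choroid plexus markers (2 of 8) to 3745 and 4826 against 8039 and 5192. The part of such RNA in the differences of the ER to Golgi genes was not tested.

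Sar1b (chromosome 11, 51763687 to 51791925, plus strand), the GTPase that starts COPII coat assembly, had a signal of 55.9 and 100 in shScrmbl monocytes and 202 and 272 in shXbp1 monocytes. Both shXbp1 values exceeded both shScrmbl values, on 15 and 17 counts, with a pooled ratio of 3.04 (exact 95% interval 1.43 to 6.54, counting error only). limma gave 1.63 ± 0.75 (SE, unadjusted p = 0.0364, adjusted p = 0.881) and edgeR 1.59 (unadjusted p = 0.0312, adjusted p = 0.922). Trappc1 was 27.9 and 36.4 against 50.6 and 188 (edgeR 2.05, unadjusted p = 0.0226, adjusted p = 0.922). Both limma and edgeR gave Trappc1 a positive difference, and both its shXbp1 libraries were higher. Copa, the alpha subunit of COPI, was 55.9 and 82.0 against 152 and 126. Copz1 was 307 and 72.8 against 253 and 377.

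Among the lower genes, Rint1 was 182 and 191 against 50.6 and 126 (limma -1.21 ± 0.77 SE, adjusted p = 0.887). Gosr2 was 154 and 82.0 against 0 and 62.8. Arf1 was 140 and 109 against 50.6 and 62.8. In each of these genes both shXbp1 libraries were lower, and so they were for Sec24c, at 69.9 and 100 against 50.6 and 0. Gosr2 was thus below shScrmbl without overlap in both myeloid cell types and overlapped in astrocytes, while Sec24c was above in microglia and below in monocytes. The differences between cell types were not tested, and none of these values passed a test within its own cell type. Without the second shXbp1 library, which leaves 1 shallow library of 15654 counts in that group, limma called 13 of the 40 genes and 1163 of all genes. Without the first shXbp1 library it called 5 of 40 and 486 of all, and without either shScrmbl library 0 of each; the lone library is then assumed to vary like the other group.

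**Figure D4:**
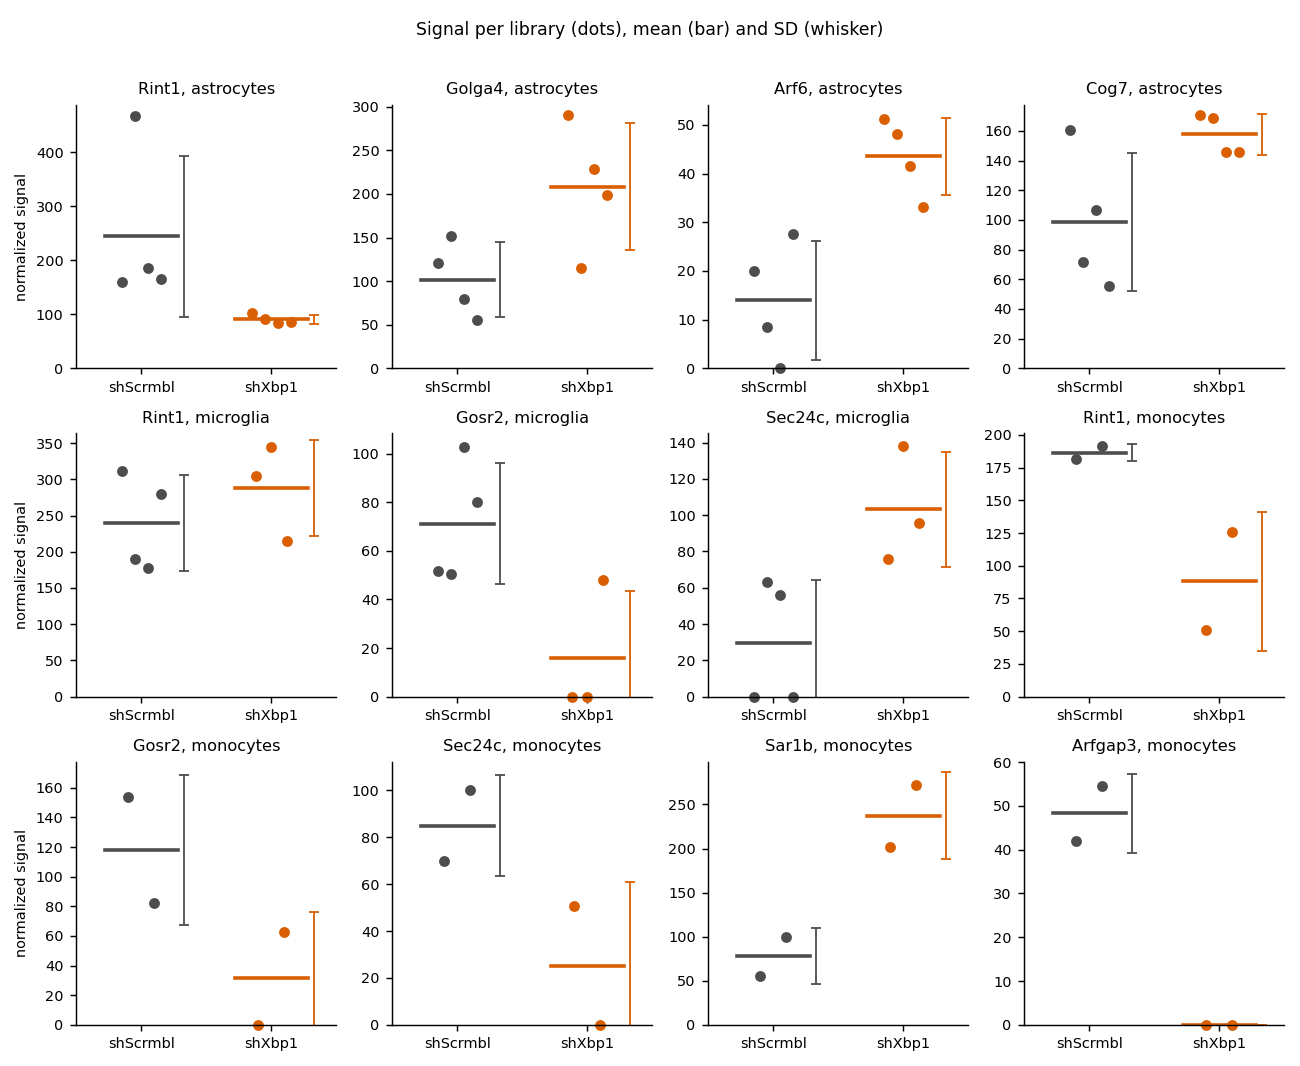
Normalized signal of the genes with the smallest p or with non-overlapping groups, 1 dot per library, with the mean as a bar and the SD as a whisker cut at 0. Rint1 sits lower in shXbp1 in astrocytes and monocytes but not in microglia, and Sec24c lies higher in microglia and lower in monocytes.

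A list of 62 other genes of the early secretory pathway gave no calls either. Of them 43 were tested in astrocytes, 20 in microglia and 29 in monocytes, and limma and edgeR called 0 in each. At an unadjusted p under 0.05 limma had 2 of 43, 0 of 20 and 0 of 29, against 4.68%, 5.41% and 4.77% of all genes, so these counts lay near the background. Napa, which helps NSF take apart used SNAREs, was 261, 215, 133 and 248 in shScrmbl and 85.3, 168, 62.5 and 126 in shXbp1 (limma adjusted p = 0.824). Tmf1, a golgin, was 120, 181, 107 and 55.2 against 273, 173, 208 and 173 (limma 0.92, adjusted p = 0.824). Both overlapped between viruses. In microglia the smallest p belonged to Gcc2, a golgin, at 156, 50.5, 65.3 and 120 against 0, 0 and 144, and to Yif1a at 51.9, 101, 56.0 and 80.0 against 0, 69.0 and 0. In monocytes it belonged to Vti1b, an endosomal SNARE, at 83.8 and 27.3 against 152 and 105, and to Yipf3 at 0 and 18.2 against 101 and 105.

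The level of the machinery itself differed modestly between cell types. Tables were normalized separately, so levels across them are set side by side without a test. Among the 33 genes in all 3 tables, the ratio of the highest to the lowest shScrmbl mean ran from 1.12 to 4.79 with a median of 1.69. The lowest mean was in astrocytes for 20 of the 33, and the highest in microglia for 15 and in monocytes for 14. These counts leave out the 25 genes listed in astrocytes alone. They cover only genes that also entered the shorter microglia and monocyte tables. Each set of libraries also held RNA of other cell types, as given above for astrocytes, so these are levels of sorted libraries. Choroid plexus markers summed to a shScrmbl mean of 257960 in astrocytes, 32586 in microglia and 4286 in monocytes. Their part in the scaled levels was not tested.

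Golm1 differed most, at a shScrmbl mean of 132 ± 39.1 (SD, n = 4) in microglia, 44.7 ± 27.2 (SD, n = 4) in astrocytes and 27.6 ± 0.446 (SD, n = 2) in monocytes. Microglia spanned 80.0 to 168 and monocytes 27.3 to 27.9, while the highest astrocyte library, at 84.3, reached into the microglial range. Arf1 was 124 ± 21.5 in monocytes, 90.8 ± 36.6 in microglia and 33.6 ± 33.6 in astrocytes, and its neighbours in that order overlapped. Trappc1 was 114 ± 31.7 in microglia, 56.1 ± 31.7 in astrocytes and 32.2 ± 5.99 in monocytes, and only microglia and monocytes did not overlap. Tmed5 was 134 ± 8.67 in monocytes, 109 ± 27.2 in microglia and 45.8 ± 17.2 in astrocytes, the astrocyte libraries all below the others.

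Sec24c and Sar1a, both COPII genes, were the other two of the 6 with the widest range. Sec24c was 69.9 and 100 in monocytes, 70.1 ± 40.6 in astrocytes and 29.8 ± 34.5 in microglia. Sar1a was 96.9 ± 21.1, 36.2 ± 27.6 and 58.9 ± 23.6 in the same order of cell types. Neighbours in the order of levels overlapped for both. Another gene overlaps the last 1000 bases of 18 of the 66 genes, on the opposite strand for 16, Golm1 (Naa35), Tmed5 (Mtf2) and Sec24c (6230400D17Rik) among them, and without knowing whether strand was used the counts of such pairs cannot be told apart.

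The most abundant genes were largely shared. Golgb1, Tmed10 and Copz1 were among the 6 highest in all 3 cell types, and Rint1 in astrocytes and microglia. Astrocytes added Copb2 and Golga4, microglia Sec13 and Tmed3, and monocytes Surf4, Sar1b and Cope, the epsilon subunit of COPI. Cope in monocytes, at 196 and 100 in shScrmbl and 0 and 293 in shXbp1, shows how far 2 libraries of 1 group could stand apart.

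**Figure D5:**
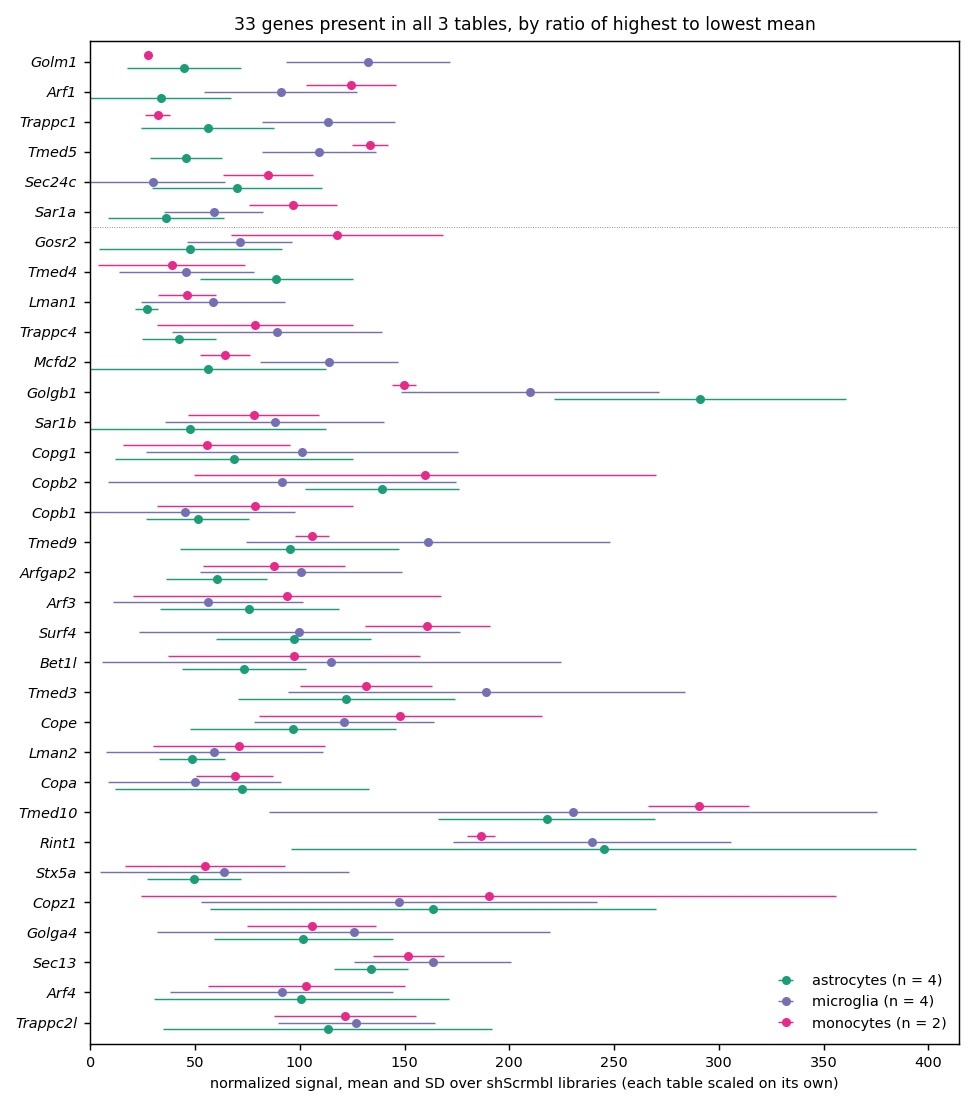
Mean normalized signal (dots) and SD (bars, cut at 0) of the 33 shared genes in shScrmbl libraries, ordered by the ratio of the highest to the lowest cell type, with the 6 widest above the dotted line. Golm1 at the top has its microglial mean at 132 and its monocyte mean at 27.6, and Trappc2l at the bottom has the smallest ratio, 1.12.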

How the data were processed

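RNA of 19 libraries of astrocytes, microglia and monocytes was counted by 3′ digital gene expression, per the labels' protocols. For every cell type the authors deposited a separate table of scaled signal. BWA 0.7.10, limma 3.34.1 and mm10 stand without roles in the submitters' processing notes, and the counter, the scaling and the use of strand are not given in the sources used here. Within a library, deposited signals above 0 were whole counts times 1 step (100% whole within 0.01 of a count), so counts were recovered, and 3 of them serve as the floor. It is not stated whether reads or molecules were counted, and intervals from counts (exact, 95%) cover counting error only.

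The genes described and the gene lists were chosen with earlier results of these data known. The viruses were compared within a cell type over all its genes that reached a signal of 1 in enough libraries to fill the smaller group. The test was limma 3.58.1 (trend, robust) on log2(signal + 1), with Benjamini-Hochberg adjustment over the table and a threshold of 0.05. All 65, 34 and 40 ER to Golgi genes passed that filter. For low genes the size of a difference depends on that pseudocount. edgeR 4.0.16 (quasi-likelihood) and DESeq2 1.42.0 on recovered counts, a pseudocount of 10, no filter, signal in every library, quantile normalization, rescaling without Ttr, a replicate block and leaving out each library were the alternatives. The scripts were tested on simulated data.

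Genes were named by a fixed rule: per cell type the 6 with the highest mean and the 4 with the smallest p in each direction, those called, those without overlap in astrocytes or microglia, the 6 with the widest range of levels, the 2 highest of each role in astrocytes, and 2 of the other pathway genes. Kdelr1, Tmed9 and the genes with UPRE letters were named outside it, after their values were seen. R 4.3.3, Python 3.11.15, numpy 2.4.6, pandas 2.3.3, scipy 1.17.1 and matplotlib 3.10.9 were used. Coordinates are those of GENCODE M21 (GRCm38, also called mm10), and promoters those of RefSeq (GRCm38.p6). Same-numbered libraries are not stated to come from the same mouse across groups.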

Additional observations from a re-analysis of the deposited data

Results flagged for a closer look

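Within 97 groups of 4 libraries of the named genes, 4 held a library apart from the other 3, and over all members 8 of 164 did (4.88%); chance gives about 1 in 20. In astrocytes, Arf3 had a signal of 72.9 in the third shXbp1 library, against 130 to 139 in the others. Sec31a had 17.1 in the first shXbp1 library, where 1 count is worth that much, against 83.3 to 93.0. Tmed5 had 20.1, also a single count, in the first shScrmbl library, against 53.3 to 55.2. Rint1 had 468 in the second shScrmbl library, the deepest of all, against 160 to 186.

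Sec24c differed in direction between the myeloid cells. Every shXbp1 microglia library was above every shScrmbl one (limma log2 difference 3.70), and every shXbp1 monocyte library was below (-3.56). The difference between the cell types was not tested, the 2 tables were normalized separately, and the shXbp1 values rest on 7 counts and 1 count.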

How the results depend on the processing

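No ER to Golgi gene was called in astrocytes or microglia under any alternative. Over all genes, the number called in astrocytes was 0, but 1 with signal in every library and 1 by edgeR. In microglia it was 0, but 12 by edgeR, 6 after quantile normalization and 2 after rescaling without Ttr, and 0 to 3 when each library was left out (3 without the first shScrmbl library). In monocytes it was 101, but 0 with a pseudocount of 10, 0 with signal in every library, 1 by edgeR, 0 by DESeq2 and 0 after quantile normalization, and 0 to 1163 when each library was left out. The number of ER to Golgi genes called in monocytes was 1, but 0 with a pseudocount of 10, 0 with signal in every library, 0 by edgeR, 0 by DESeq2 and 0 after quantile normalization, and 0 to 13 when each library was left out. The adjusted p of Arfgap3, the gene called, ran from 1.47e-07 with a replicate block to 0.999 by DESeq2, and its call was also lost without either shScrmbl library.

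The microglial median log2 difference of the ER to Golgi genes was -0.24, but 0.0012 with signal in every library (12 genes) and 0.0752 after quantile normalization, with -1.21 to 0.19 when each library was left out, the ends being without the third and the second shXbp1 library. The monocyte median was -0.46, but 0.23 with signal in every library, 0.14 by edgeR, 0.15 by DESeq2 and 0.23 after quantile normalization, with -0.64 to 0.40 when each library was left out (0.40 without the first shXbp1 library). These medians are not set beside those of all genes here, which the same settings can also move. The cause of these changes was not tested. Gcc2 in microglia, -4.09 by limma, was 0.12 by edgeR. Without the second shXbp1 monocyte library Gosr2 (-6.82, adjusted p = 0.000113) and Rint1 (-1.86, adjusted p = 0.0236) passed, and without the first Trappc1 did (2.52, adjusted p = 0.0226).

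A replicate block called 0, 0 and 112 genes in astrocytes, microglia and monocytes and 0, 0 and 1 ER to Golgi genes, so it changed none of their calls. The numbers share no stated mouse, litter or day, and deviations of same-numbered libraries correlated at -0.004 to 0.064 in astrocytes, -0.002 to 0.058 in microglia and -0.076 in monocytes, so they were not taken as pairs. Not every astrocyte library correlated best with its own number. Depth limits all of this: 32 of 65, 22 of 34 and 13 of 40 genes were at 0 in at least 1 library, and the 95% interval stayed within 2-fold for 1 astrocyte gene.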
